A study of Homo sapiens with 4 samples.

Results

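The miR-15/16 family described here is 7 mature miRNAs cut from 4 hairpins, which lie as a pair at each of 2 loci. The members were chosen by name and are both arms of MIR15A and MIR16-1 (chromosome 13) and of MIR15B and MIR16-2 (chromosome 3). All 7 had a row among the 2366 human miRNA rows, and all 7 passed the filter on low counts that left 464 miRNAs for testing. Small RNAs were sequenced from the human chronic myeloid leukaemia line K562 carrying dCas9-KRAB, an inactive Cas9 joined to a repressor domain, which shuts down transcription where a guide RNA takes it. Each of 2 guide RNAs against ERH had its own doxycycline-inducible polyclonal line, so the libraries of both groups carried dCas9-KRAB and an ERH guide RNA. ERH knockdown cells had 0.05 µg/ml doxycycline for 5 days, control cells had the same guide RNA and 5 days without doxycycline, and 1 library was made per guide RNA and condition, which gave 2 libraries per group. ERH mRNA was not measured here, and cells given doxycycline but no guide RNA to ERH were not analysed here, so an effect of the drug and one of the knockdown cannot be told apart.

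A primary miRNA transcript folds into hairpins that the Microprocessor (the nuclease DROSHA with its partner DGCR8) cuts out in the nucleus. Dicer then cuts off the loop, and 1 of the arms, named 5p or 3p, is mostly kept by an Argonaute protein while the other is mostly lost. ERH, a small protein conserved across animals and plants, is a Microprocessor partner, and the study's title asks whether a neighbouring hairpin helps a poor hairpin to be cut through ERH. miR-15a, miR-15b and miR-16 share a seed, the bases that pair with target mRNAs, and are known for repressing cell cycle and survival genes such as CCND1, CCNE1 and BCL2. The chromosome 13 pair is known for its loss in chronic lymphocytic leukaemia.

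The 4 hairpins are shown because the results turn on which hairpin a mature miRNA comes from. They are RefSeq sequences on GRCh38.p14, written 5′ to 3′, with the 5p arm and then the 3p arm in capitals. MIR15A lies at chr13:50049119-50049201 and MIR16-1 at chr13:50048973-50049061, both on the minus strand. MIR15B lies at chr3:160404588-160404685 and MIR16-2 at chr3:160404745-160404825, both on the plus strand.
MIR15A: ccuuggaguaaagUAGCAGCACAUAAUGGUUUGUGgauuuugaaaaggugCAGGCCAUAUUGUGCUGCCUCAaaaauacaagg
MIR16-1: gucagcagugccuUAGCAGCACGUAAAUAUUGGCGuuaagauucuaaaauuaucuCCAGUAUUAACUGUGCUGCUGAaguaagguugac
MIR15B: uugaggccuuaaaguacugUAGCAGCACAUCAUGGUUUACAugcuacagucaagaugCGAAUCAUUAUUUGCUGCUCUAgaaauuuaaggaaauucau
MIR16-2: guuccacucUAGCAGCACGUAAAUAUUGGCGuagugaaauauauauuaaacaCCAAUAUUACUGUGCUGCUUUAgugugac

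The layout of the loci was alike, with the miR-15 hairpin first in the direction of transcription. There were 57 bases between MIR15A and MIR16-1 and 59 bases between MIR15B and MIR16-2. In GENCODE 29 (GRCh38) the chromosome 13 pair lies in an intron of all 6 transcripts of the long noncoding RNA gene DLEU2 that span it, on the same strand. In 2 other DLEU2 transcripts an exon ends inside the first 13 bases of the MIR15A hairpin, before its 5p arm. The chromosome 3 pair lies in an intron of all 13 spanning transcripts of SMC4, which encodes a condensin subunit, also on the same strand.

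**Figure D1:**
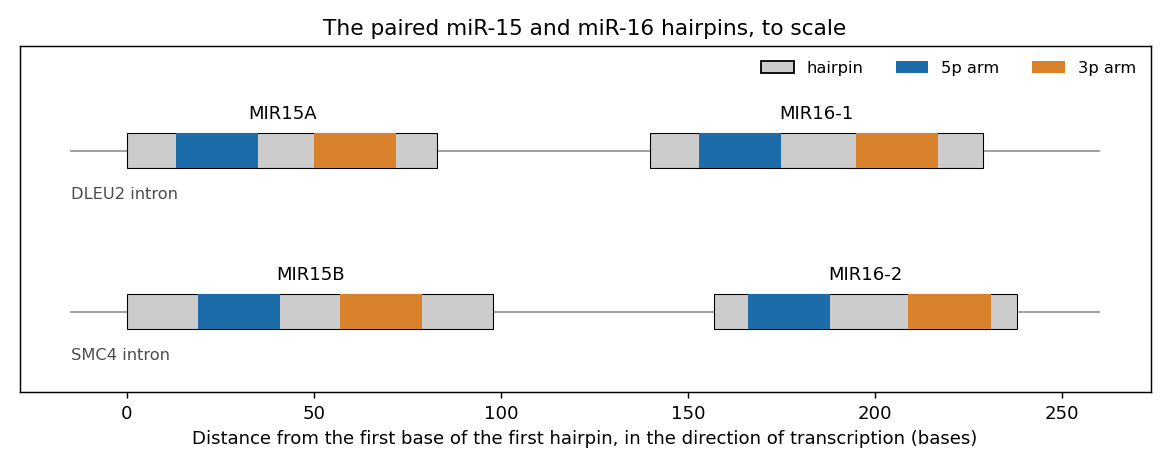
Positions of the hairpins (grey) and their 5p (blue) and 3p (orange) arms, in bases from the start of the first hairpin in the direction of transcription; 1 row per locus. Both loci place the miR-15 hairpin first, with 57 and 59 bases between the hairpins.

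The mature members are shown with their seeds, bases 2 to 8, in capitals, because the seed groups them. Elsewhere the species prefix hsa is left off.
hsa-miR-15a-5p: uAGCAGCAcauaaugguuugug
hsa-miR-15b-5p: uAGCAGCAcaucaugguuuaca
hsa-miR-16-5p: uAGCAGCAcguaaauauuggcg
hsa-miR-15a-3p: cAGGCCAUauugugcugccuca
hsa-miR-15b-3p: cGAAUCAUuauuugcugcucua
hsa-miR-16-1-3p: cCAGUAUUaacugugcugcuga
hsa-miR-16-2-3p: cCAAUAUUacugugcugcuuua
The 3 5p arms carried 1 seed, which 7 of the 2370 mature names in the RefSeq table hold. The 4 3p arms had 4 different seeds. miR-15a-5p and miR-15b-5p were identical at 18 of 22 positions, and their first 11 bases were the same. The 5p arm of MIR16-1 and MIR16-2 is 1 and the same miRNA, miR-16-5p, so its reads cannot be split between the loci, while each of the other 6 members comes from 1 hairpin.

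The 5p arms made up nearly all reads of the family. In each library they took 98.8% to 98.9% of the reads of the 7 members, which together held 73954 to 121709 reads. Levels are given below in CPM scaled with TMM factors, that is, reads scaled to a common library total after the bulk of miRNAs has been matched between libraries. By mean level on this scale miR-16-5p was the most abundant member and held place 7 among the tested miRNAs, with miR-15b-5p in place 12 and miR-15a-5p in place 22. A mature miRNA gives 1 read whatever its length, but small-RNA ligation and PCR are known to favour some sequences, so places and orders of members are those of read counts and may not be those of the molecules in the cell.

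After ERH knockdown all 7 members fell against the bulk of miRNAs, and the miR-15a arms fell most. A fall means an adjusted p under 0.05 in edgeR's quasi-likelihood test (Benjamini-Hochberg adjustment over all 464 tested miRNAs). Of all tested miRNAs, 25.2% passed in this direction and 25.6% in the other. The median log2 fold change of the members was -0.51, against 0.06 for all tested miRNAs. These 7 values are not 7 independent measurements, since arms share a hairpin and hairpins share a transcript. Knockdown and control levels did not overlap for any member, as was so in this direction for 34.9% of the tested miRNAs.

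miR-16-5p, the family's main species, stood at 26677 and 26920.3 CPM after knockdown (guide RNA 1, then 2) and at 33017 and 33137 CPM in controls. The knockdown libraries lay close together and below both controls. This was a fall of 0.30 ± 0.05 on the log2 scale (SE of the fit, 2 libraries per group; adjusted p = 8.86e-05), to 81.0% of control. miR-15b-5p, the guide arm of MIR15B, stood at 10071 and 10059 CPM after knockdown and at 15364 and 15238 CPM in controls. It fell to 65.8% of control, by 0.60 ± 0.05 (log2, SE; adjusted p = 7.63e-08). miR-15a-5p, the guide arm of MIR15A, stood at 5531 and 5512 CPM after knockdown and at 9599 and 9662.5 CPM in controls. Its level fell to 57.3% of control, by 0.80 ± 0.05 (log2, SE; adjusted p = 4.07e-09). For these 3 abundant arms the changes within the guide RNAs were nearly the same. miR-15a-5p changed by -0.80 with guide RNA 1 and by -0.81 with guide RNA 2, miR-15b-5p by -0.61 and -0.60, and miR-16-5p by -0.31 and -0.30.

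The 3p arms, which are the less abundant products, rested on 115 to 602 reads per library. miR-15a-3p had 202 and 212 reads after knockdown and 179 and 341 reads in controls, or 76.7 and 77.4 CPM against 142 and 165 CPM. Its level was 49.8% of control, a fall of 1.005 ± 0.12 (log2, SE; adjusted p = 3.97e-06) and the largest among the 7 members. miR-15b-3p stood at 212 and 216 CPM after knockdown and at 299.8 and 290.5 CPM in controls, and fell by 0.46 ± 0.09 (log2, SE; adjusted p = 4.40e-04). The passenger arms of miR-16 tell its loci apart. miR-16-1-3p, from chromosome 13, stood at 67.2 and 62.4 CPM after knockdown and at 91.2 CPM in both controls, and fell by 0.49 ± 0.13 (log2, SE; adjusted p = 0.0047). miR-16-2-3p, from chromosome 3, stood at 94.6 and 104.8 CPM against 143.6 and 140.4 CPM, and fell by 0.51 ± 0.11 (log2, SE; adjusted p = 0.0015). The 3p arms of MIR16-1 and MIR16-2 thus stood at 71.1% and 70.4% of their control levels.

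The order of the read levels was miR-16-5p, miR-15b-5p, miR-15a-5p and miR-15b-3p in both groups. In controls miR-15a-3p and miR-16-2-3p came next and overlapped, and miR-16-1-3p was lowest. After knockdown miR-15a-3p lay below both values of miR-16-2-3p and above both values of miR-16-1-3p.

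**Figure D2:**
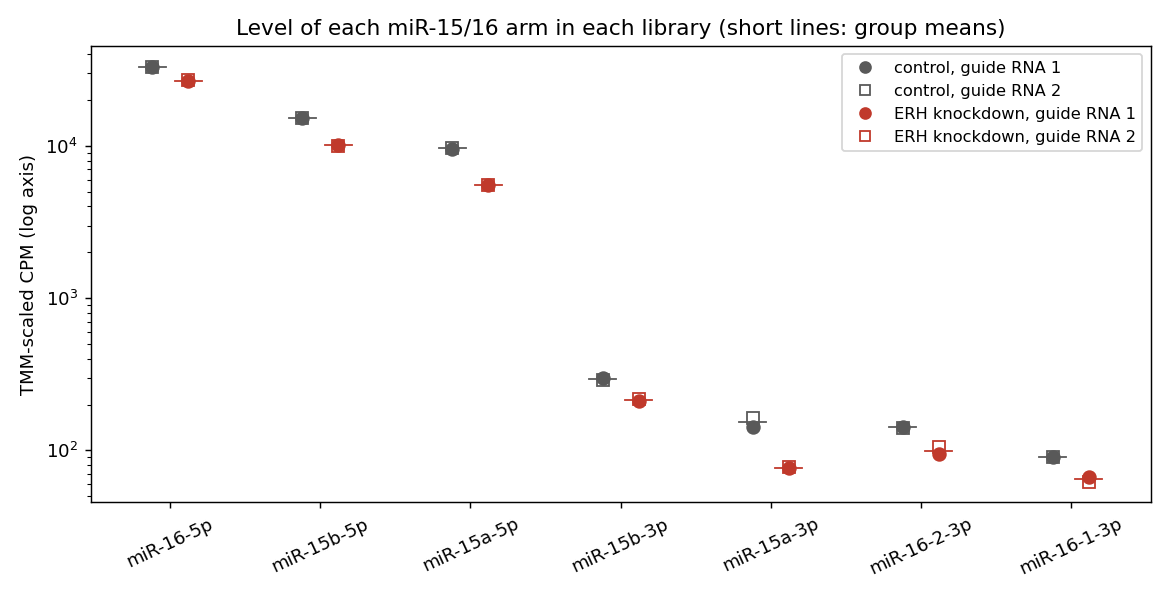
TMM-scaled CPM on a log axis for each member, with 1 point per library (grey control, red ERH knockdown; filled circles guide RNA 1, open squares guide RNA 2) and short lines at the group means. Every member lies lower in both knockdown libraries than in both controls, and miR-15a-3p drops below miR-16-2-3p.

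Among the 464 tested miRNAs, 3.88% had a lower log2 fold change than miR-15a-3p, 7.54% lower than miR-15a-5p and 11.9% lower than miR-15b-5p. For miR-16-5p the share was 26.7%, the highest of the members. The other 3 arms, miR-15b-3p, miR-16-1-3p and miR-16-2-3p, had 15.9% to 17.7% of tested miRNAs below them.

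**Figure D3:**
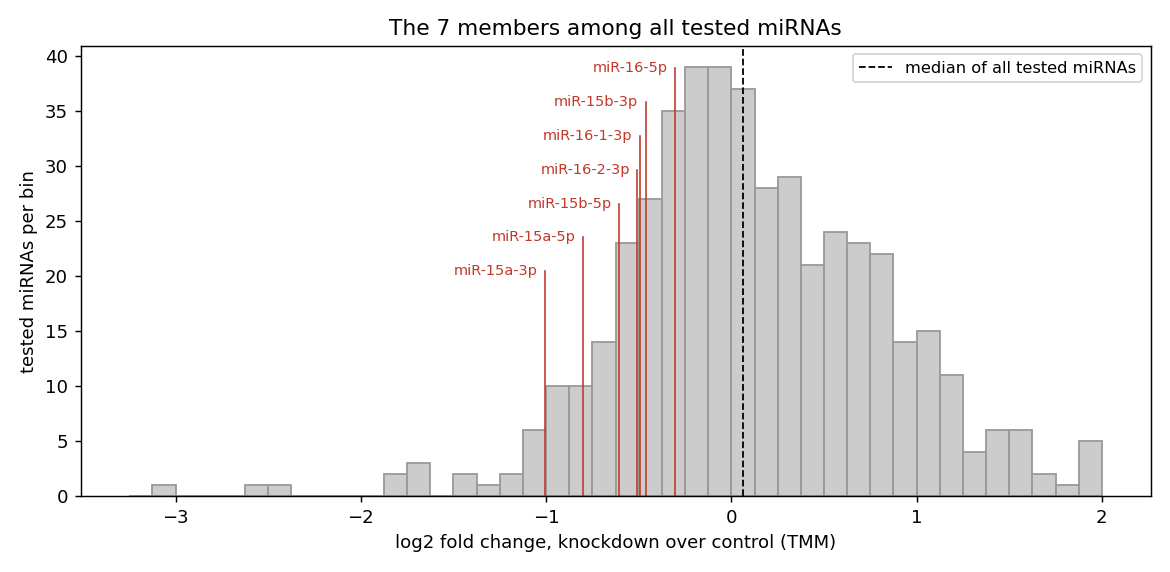
Histogram of the log2 fold change (knockdown over control, TMM) of the 464 tested miRNAs, with a red line at each member and a dashed line at the median of all, 0.06. The members run from -1.005 for miR-15a-3p to -0.30 for miR-16-5p, all below the median.

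Whether a member stood lower or higher after knockdown depended on the scaling. The median of all tested miRNAs lay 0.44 higher (log2) with library size alone than with TMM, and 0.68 higher when scaled on the 2 spike-in RNAs in the files (frog miR-427 and fly miR-14 by their names). Another scaling moves all miRNAs by nearly the same amount, so the distance of the members' median from that of all tested miRNAs, 0.57 lower with TMM, is fixed by construction and was 0.57 with library size and 0.56 with spike-ins. With library size alone, miR-15a-5p (-0.36 ± 0.06), miR-15a-3p (-0.56 ± 0.13) and miR-15b-5p (-0.17 ± 0.06) were still called lower, against 8.84% of all tested miRNAs. miR-16-5p turned to 0.13 ± 0.05 (log2, SE; edgeR adjusted p = 0.018), a called rise, as 58.8% of tested miRNAs had, and the other 3 arms stood between -0.07 and -0.02, not called. With spike-ins 0 of the 7 members were called in edgeR in either direction, 0 had an unadjusted p under 0.05, while 1.72% of all tested miRNAs were called lower and 40.1% higher. Of the members, the 2 miR-15a arms alone kept a negative value there (-0.11 ± 0.39 for 5p and -0.32 ± 0.35 for 3p), and miR-16-5p stood at 0.39 ± 0.39. DESeq2, run with its own size factors, called all 7 members and 21.3% of all tested miRNAs lower.

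The wide errors with spike-ins came with spike-in shares that differed between the lines. Spike-in reads were 2.66% and 3.23% of miRNA reads with guide RNA 1 (knockdown, then control) and 2.0% and 2.35% with guide RNA 2. The changes within a guide RNA were close all the same. Scaled on spike-ins, miR-15a-5p changed by -0.09 and -0.13, miR-15b-5p by 0.09 and 0.08, and miR-16-5p by 0.40 and 0.38. With guide RNA as a block, spike-in scaling gave miR-16-5p a called rise of 0.39 ± 0.05 (log2, SE; edgeR adjusted p = 1.25e-13), miR-15a-3p a called fall of 0.30 ± 0.14 (log2, SE; edgeR adjusted p = 0.043), and no other member a call. In that fit 72.6% of all tested miRNAs were called higher and 3.66% lower. The reads of frog miR-427 per read of fly miR-14 were 7.14 to 7.78 in 3 libraries and 9.82 in the knockdown library with guide RNA 2. The part of this in the result was not tested.

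**Figure D4:**
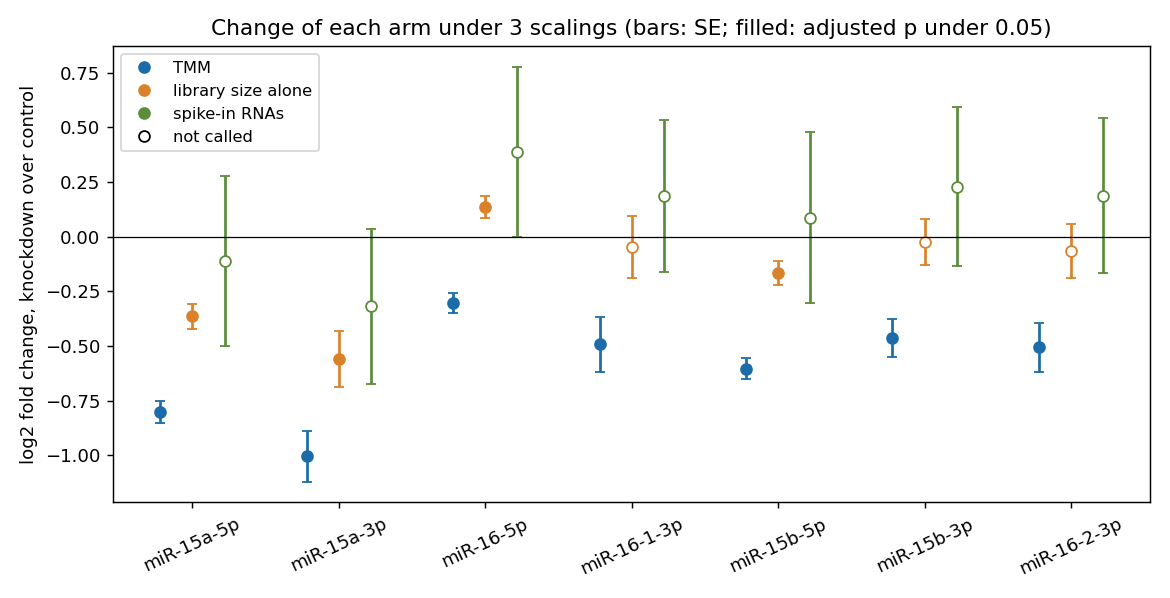
log2 fold change of each member (knockdown over control) with TMM (blue), library size alone (orange) and spike-in scaling (green); bars are the SE of the fit and filled points were called at an adjusted p under 0.05. By construction the points move up together, so that miR-16-5p goes from -0.30 to 0.13 and 0.39 and miR-15a-5p from -0.80 to -0.36 and -0.11.

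The family as a whole held a steady share of the miRNA reads, and its make-up shifted towards miR-16-5p. All 7 members together were 5.05% and 4.92% of miRNA reads after knockdown and 5.17% and 4.91% in controls, values that overlapped. Per spike-in read there were 1.90 and 2.46 family reads after knockdown and 1.60 and 2.09 in controls, higher after knockdown within each guide RNA. Among the reads of the 3 5p arms, which share a seed, miR-15a-5p took 13.03% ± 0.08 after knockdown and 16.6% ± 0.07 in controls (SD, n = 2). The share of miR-15b-5p was 23.7% ± 0.10 against 26.4% ± 0.17, and that of miR-16-5p was 63.2% ± 0.18 against 57.0% ± 0.11. Each of these differences was far larger than the spread between libraries. With 2 libraries in each group the smallest two-sided p of an exact permutation test is 0.33, and each of these shares reached it.

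Count ratios within a library need no scaling, and 10 ratios among the members were compared. The neighbour ratio on chromosome 13, that of miR-15a-5p to miR-16-5p, stood at 0.207 and 0.205 after knockdown and 0.291 and 0.292 in controls. The log2 ratio was lower by 0.49 with guide RNA 1 (95% interval from counting error -0.53 to -0.45) and by 0.51 with guide RNA 2 (-0.54 to -0.48). On chromosome 3, miR-15b-5p per miR-16-5p was 0.378 and 0.374 after knockdown and 0.465 and 0.460 in controls. This log2 ratio was lower by 0.30 with either guide RNA (-0.33 to -0.27 for both). Both miR-15 guide arms thus stood lower against miR-16-5p. Since miR-16-5p pools both loci, neither ratio measures a single locus.

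miR-15a also stood lower against miR-15b. Reads of miR-15a-5p divided by those of miR-15b-5p gave 0.549 and 0.548 after knockdown and 0.625 and 0.634 in controls, a log2 change of -0.20, with -0.19 (-0.23 to -0.14) in guide RNA 1 and -0.21 (-0.25 to -0.17) in guide RNA 2. Between the 3p arms, miR-15a-3p per miR-15b-3p was 0.363 and 0.358 after knockdown and 0.474 and 0.566 in controls, a log2 change of -0.52. That change was -0.38 (-0.73 to -0.04) in guide RNA 1 and -0.66 (-0.96 to -0.36) in guide RNA 2, with an SD of 0.18 between the control libraries. The groups did not overlap in either of these ratios. Nor did they for 49.5% of arm ratios and 63.5% of neighbour ratios over all hairpins described below, and no such share was computed for ratios between loci. Reads that can be placed at 1 locus came from chromosome 13 in 35.3% ± 0.07 of cases after knockdown and in 38.6% ± 0.29 in controls (SD, n = 2).

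The 3p arms give neighbour ratios that keep the loci apart, on fewer reads. On chromosome 13, miR-15a-3p per miR-16-1-3p was 1.14 and 1.24 after knockdown and 1.56 and 1.80 in controls. Its log2 change was -0.45 (-0.89 to -0.0017) with guide RNA 1 and -0.54 (-0.93 to -0.15) with guide RNA 2. On chromosome 3, miR-15b-3p per miR-16-2-3p was 2.24 and 2.06 after knockdown and 2.09 and 2.07 in controls, and the groups overlapped. Its log2 change was 0.10 (-0.24 to 0.43) with guide RNA 1 and -0.0042 (-0.29 to 0.28) with guide RNA 2. Counting error at this depth leaves room for a change anywhere within those bounds. The difference between the loci in this log2 ratio, computed after these values were seen, changed by -0.55 (-1.10 to 0.01) with guide RNA 1 and by -0.54 (-1.02 to -0.06) with guide RNA 2. The ratio of the miR-16 passenger arms, miR-16-1-3p per miR-16-2-3p, was 0.711 and 0.596 after knockdown, on either side of the control values of 0.635 and 0.649.

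The arms of a hairpin were compared with each other as well. miR-15a-5p per miR-15a-3p was 72.1 and 71.2 after knockdown and 67.6 and 58.7 in controls, and its log2 change of 0.19 compares with an SD of 0.14 between the control libraries. That change was 0.29 without the control of guide RNA 1 and 0.084 without the control of guide RNA 2. miR-15b-5p per miR-15b-3p was 47.6 and 46.5 after knockdown and 51.2 and 52.5 in controls, a log2 change of -0.14. miR-16-5p per read of both its 3p arms was 165 and 161 after knockdown and 141 and 143 in controls, a log2 change of 0.20. These groups did not overlap, but neither did they for 49.5% of the 109 hairpins with both arms tested. Over those 109 hairpins the median size of the log2 change was 0.23, and 62 changed at least as far as MIR15A and 74 at least as far as MIR15B, counting each itself. Neighbouring hairpins within 10 kb, each standing for its most abundant tested arm, gave 52 pairs with a median size of 0.26. Of these pairs 63.5% had groups that did not overlap, 14 changed at least as far as miR-15a-5p per miR-16-5p, and 24 at least as far as miR-15b-5p per miR-16-5p. Neither ratio therefore stands at the edge of what neighbours did in these libraries.

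**Figure D5:**
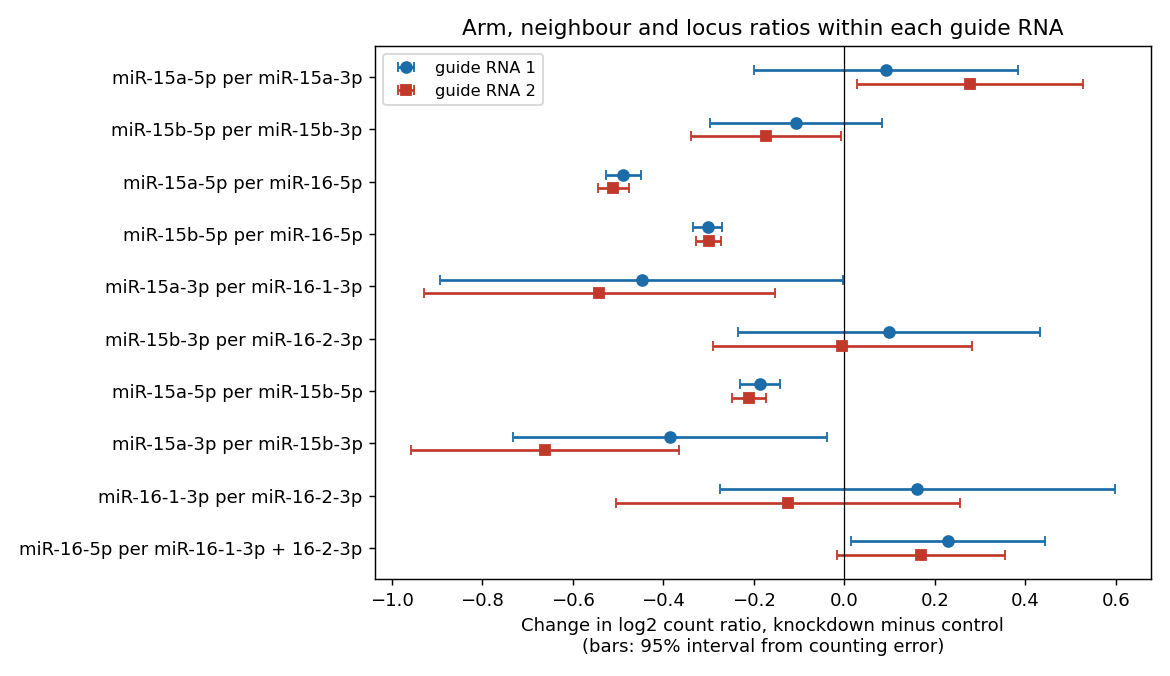
Change in the log2 count ratio (knockdown minus control) for the 10 ratios, with guide RNA 1 as blue circles and guide RNA 2 as red squares; bars are 95% intervals from counting error. miR-15a-5p per miR-16-5p lies near -0.50 and miR-15b-5p per miR-16-5p near -0.30 in both lines, with narrow bars, while ratios of 3p arms carry wide bars.

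The hairpins themselves were less stable than most. In the minimum-energy fold (RNAfold), MIR15A had -30.5 kcal/mol, MIR16-1 -37.0, MIR15B -29.3 and MIR16-2 -29.5. Per base these are -0.37, -0.42, -0.30 and -0.36 kcal/mol, against a median of -0.49 over the 239 hairpins with both arms annotated and a tested miRNA. Of those 239, 10.0% were less stable per base than MIR15A, 20.9% than MIR16-1, 1.26% than MIR15B and 9.62% than MIR16-2. The annotated hairpins extend to different lengths beyond the arms, 9 to 19 bases on the 5′ side, so these energies cover unequal parts of the lower stem. Within the arms, 9 bases were unpaired in MIR15A, 8 in MIR15B, 8 in MIR16-2 and 4 in MIR16-1, against a median of 6. MIR16-1 thus had the fewest unpaired arm bases and the lowest energy of the 4. The G and C content was 36.7% to 42.2%, against a median of 50.7%. The motif UGU, which DGCR8 is known to favour at the top of a hairpin, was searched on the RNA strand in the bases between the arms. It was in none of the 4, and in 42.7% of the 239 hairpins. The search left out the arms, and in MIR15A the 5p arm holds a UGU close to its loop end.

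Other miRNAs of this seed and their neighbours were looked at in a list of 12 relatives. Of these, 9 had rows, 4 were tested, 3 fell and 0 rose, against 25.2% and 25.6% of all tested miRNAs, with a median log2 fold change of -0.60. miR-195-5p and miR-497-5p, which share the seed and come from a paired locus on chromosome 17, are shown because their sequences set how far reads can be told apart.
hsa-miR-195-5p: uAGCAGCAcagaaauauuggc
hsa-miR-497-5p: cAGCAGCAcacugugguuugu
miR-195-5p had 99 and 94 reads after knockdown and 71 and 116 reads in controls, and fell by 0.64 ± 0.15 (log2, SE; edgeR adjusted p = 0.0032). miR-497-5p had 83 and 81 reads after knockdown and 68 and 81 reads in controls, and fell by 0.56 ± 0.19 (log2, SE; edgeR adjusted p = 0.021). miR-195-5p differs from miR-16-5p at 2 of 21 positions and had 0.127% to 0.170% of their joint reads, so even a rare misassignment of miR-16-5p reads would weigh on it. How such reads were assigned is not given in the sources used here.

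The MIR424 and MIR503 hairpins are neighbours on chromosome X and belong to the same wider family. miR-424-3p stood at 57.0 and 59.5 CPM after knockdown and at 111 and 105 CPM in controls, and fell by 0.88 ± 0.12 (log2, SE; edgeR adjusted p = 2.90e-05). miR-503-5p, whose seed differs from that of miR-15a-5p, was at -0.13 ± 0.09 (edgeR adjusted p = 0.23). With library size miR-424-3p was still called (-0.44), miR-195-5p (-0.20) and miR-497-5p (-0.12) were not, and miR-503-5p turned to a called 0.31, where 8.84% of all tested miRNAs were called lower and 58.8% higher. With spike-ins 0 of the 4 were called in edgeR and 0 had an unadjusted p under 0.05, with miR-195-5p at 0.03 and miR-497-5p at 0.11, where 1.72% of all tested miRNAs were called lower and 40.1% higher. The rows of miR-195-3p, miR-497-3p, miR-503-3p, miR-646 and miR-6838-5p held 0 to 8 reads per library and were not tested. miR-424-5p, miR-103a-3p and miR-107 were not analysed here.

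The miRNAs whose pattern over the 4 libraries lay nearest that of miR-15a-5p were miR-1306-5p (log2 fold change -0.83 ± 0.08), miR-33b-3p (-0.75 ± 0.11) and miR-532-3p (-0.74 ± 0.08). Nearness is the Euclidean distance between centred log2 CPM profiles among 170 other miRNAs with a mean of at least 100 CPM, and the distances were 0.03, 0.10 and 0.10. Nearest to miR-15b-5p were miR-224-5p (-0.66 ± 0.05), miR-29c-3p (-0.54 ± 0.06) and miR-142-5p (-0.56 ± 0.05), at 0.06, 0.09 and 0.09. With 2 groups and libraries this alike, such nearness says little more than that the fold changes were close.

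The libraries held 1430434 to 2476700 miRNA reads. Within each group the libraries differed from each other beyond counting noise (chi-square per degree of freedom 3.93 and 10.1), so none was taken for a duplicate. Markers were read in CPM by library size alone. The erythroid miR-451a stood at 24072 to 25243 CPM, with both knockdown libraries below both controls, as did the blood-cell miR-142-3p at 55290 to 61113 and the myeloid miR-223-3p at 27947 to 30864. The erythroid miR-144-3p was at 18704 and 16963 CPM after knockdown against 8058 and 7734 CPM in controls, miR-144-5p at 2360 and 2419 against 986 and 929, and miR-486-5p at 7578 and 7372 against 5562 and 5875. By library size all 3 were higher in both knockdown libraries. With TMM, miR-144-3p was at 0.74 ± 0.05 (log2, SE; edgeR adjusted p = 1.66e-08) and miR-144-5p at 0.88 ± 0.06 (edgeR adjusted p = 1.11e-08), while miR-486-5p was at -0.05 ± 0.06 (edgeR adjusted p = 0.46). The more abundant miR-451a, miR-142-3p and miR-223-3p were called lower with TMM. They were at -0.48 ± 0.05 (edgeR adjusted p = 8.55e-07), -0.54 ± 0.05 (edgeR adjusted p = 5.42e-07) and -0.54 ± 0.05 (edgeR adjusted p = 7.37e-07). Among markers of other cell types, miR-122-5p (liver), miR-124-3p (neuron), miR-1-3p (muscle) and miR-150-5p (lymphocyte) had 0 to 8 reads in a library. miR-200c-3p (epithelium) had 69 to 194 reads and miR-145-5p (smooth muscle) 1066 to 2684. Both were higher in CPM by library size in each knockdown library than in either control. With TMM, miR-200c-3p was at 0.35 ± 0.14 (edgeR adjusted p = 0.044) and miR-145-5p at 0.26 ± 0.06 (edgeR adjusted p = 0.0041). Of the 13 markers listed, miR-133a-3p was not analysed here. The part of these markers in the results was not tested.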

How the data were processed

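Small RNAs were gel-purified from TRIzol total RNA, per the labels' protocols. The deposited values are raw read counts per mature miRNA name, 1 table per library, without a header. The adapter trimming, aligner, miRNA release, genome build and the handling of reads that match several miRNAs are each not given in the sources used here. Replicate numbers are guide RNAs and so cell lines, which pairs the libraries by design. The correlation of same-numbered libraries' deviations from their group means was -0.11. No guide RNA had a second culture of the same condition, so p-values reflect how much these 4 libraries vary.

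The members, lists and tests were chosen with earlier results of these data known. Counts without the 2 spike-in rows went through edgeR 4.0.16 (R 4.3.3). Its filterByExpr, at a minimum count of 10 and a minimum total of 15, left 464 miRNAs holding 99.9% of reads, and TMM factors and the quasi-likelihood test without a block followed. The SE is the log2 fold change over the root of F. CPM for display used no prior count, and log2 ratios of a member within a guide RNA were taken from them. Ratios and shares used raw counts. Their 95% intervals treat reads as independent and cover counting error only. Folds used RNAfold 2.7.2, permutation tests scipy 1.17.1. A count of 0 allows 3 reads, or 1.21 to 2.10 CPM. On simulated counts for these 464 miRNAs the test recovered 86.8% of log2 changes of 1 and 58.5% of changes of 0.5, and 2.18% of calls were false. The simulation gave every miRNA the same biological coefficient of variation, 5.08%, and as many rises as falls. Its share of false calls may therefore not hold for the real libraries. The bearing of the choice of scaling on these percentages was not tested. Named are all members, all relatives on the list, and the 3 nearest patterns to miR-15a-5p and to miR-15b-5p. Alternatives were a replicate block, DESeq2 1.42.0, RLE, library size, spike-ins, a minimum mean of 10 CPM, no filter, and leaving out each library. Spike-ins or library size together with the block, crossed replicate numbers, and the difference between the loci, were added after seeing the data.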

Additional observations from a re-analysis of the deposited data

Results flagged for a closer look

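Of the 10 count ratios, 2 moved in opposite directions in the lines of the guide RNAs. The log2 ratio of miR-16-1-3p to miR-16-2-3p changed by 0.16 with guide RNA 1 and by -0.12 with guide RNA 2, and that of miR-15b-3p to miR-16-2-3p by 0.10 and -0.0042. The difference between the guide RNAs was not tested, since each had 1 library per condition, and each of the 4 values had a counting interval that includes 0.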

How the results depend on the processing

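All 7 members kept their direction and their call with the replicate block (230 calls in all, 7 members), RLE, DESeq2, a minimum mean of 10 CPM, no filter and without each library, with log2 fold changes from -0.85 to -0.76 for miR-15a-5p and from -0.35 to -0.26 for miR-16-5p. The largest adjusted p among these was 0.048, for miR-16-2-3p. With TMM or library size the pairing by guide RNA changed no call of a member, while with spike-ins it added calls of miR-16-5p (higher) and miR-15a-3p (lower). With the replicate numbers crossed, a pairing added after seeing the data, 241 miRNAs were called, 118 lower and 123 higher, and 7 members. Members called lower were 3 with library size, 3 with library size and the block, 0 with spike-ins and 1 with spike-ins and the block. miR-16-5p turned to 0.13 with library size (0.13 with the block) and 0.39 with spike-ins (0.39 with the block). With spike-ins miR-16-1-3p stood at 0.19, miR-15b-5p at 0.087, miR-15b-3p at 0.23 and miR-16-2-3p at 0.19, and with the block at 0.19, 0.088, 0.23 and 0.19. Calls among all tested miRNAs were 236, with 117 lower and 119 higher. They split into 41 lower and 273 higher with library size (40 and 272 with the block), 8 and 186 with spike-ins and 17 and 337 with spike-ins and the block. DESeq2 called 146, of which 47 were higher. Leaving out a library gave 117 to 195 calls, 68 to 111 lower and 48 to 84 higher, with 117 without the knockdown library of guide RNA 1 and 140 without the control of guide RNA 2. The cause of these shifts was not tested. Without 1 library, the change in miR-15b-3p per miR-16-2-3p ran from -0.01 to 0.11 and that in miR-16-1-3p per miR-16-2-3p from -0.11 to 0.15. The signs of these changes thus depended on the library left out. The change in miR-15a-5p per miR-15a-3p ran from 0.084 to 0.29 and, like the other 7 ratios, kept its sign. Depth limits the 3p arms, whose ratios had counting intervals 0.33 to 0.89 wide on the log2 scale.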
